A study of Mus musculus with 19 samples.

Results

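The genes described here are 10 autosomal genes that write or erase methyl marks on histone H3 or that belong to the same complexes. They were chosen by name: the core of Polycomb repressive complex 2 (Ezh1, Ezh2, Eed and Suz12) with its cofactor Jarid2, the H3K27 demethylase gene Kdm6b, the H3K4 methyltransferase genes Kmt2c and Kmt2d, and Paxip1 and Ncoa6, which encode further subunits of the complexes of KMT2C and KMT2D. The X-linked gene Kdm6a encodes a partner of these complexes and its Y-linked relative is Uty. All 10 members were found among the 27179 genes listed, and all 10 were among the 14186 genes that passed the filter on low values, for which 4 or more mice had to reach an RPKM of 0.5. RPKM is the number of reads on a gene divided by the length of its exons in kilobases and by the size of the library in megareads.

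RNA sequencing was done on splenocytes of 19 mice of the FCG (4 core genotypes) model, which separate gonadal sex from sex chromosomes, 1 library per mouse, of which 5 were XXF, 4 XYF, 5 XXM and 5 XYM. The design asks how sex chromosomes and gonads each relate to gene expression after immunization. All 19 mice had been given heat-killed Streptococcus pneumoniae (HKSP) and were euthanized 1 week later, so that no unimmunized group was available. The mice came from fathers of the line B6.Cg-Tg(Sry)2Ei Srydl1Rlb/ArnoJ and C57BL/6J mothers. The Y chromosome of this line lacks Sry, which sits as a transgene on chromosome 3 instead, so that XX and XY mice each occurred with ovaries (XXF, XYF) and with testes (XXM, XYM). Males differ from females in the transgene itself as well as in their gonads. The ages of the sequenced mice, and whether any of them had been gonadectomized, are not stated in the sources used here. Library preparation is described in 2 ways, with a KAPA stranded kit in the methods and with NEBNext Ultra in the labels of the samples.

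Polycomb repressive complex 2 (PRC2) places methyl groups on H3K27, a mark of silenced genes, and EZH2 or its relative EZH1 is the catalytic subunit. KDM6 enzymes remove that mark, while KMT2C and KMT2D place the methyl mark of enhancers on H3K4 in complexes that also hold KDM6A, PAXIP1 and NCOA6. In the spleen EZH2 is best known from dividing lymphocytes, among them germinal center B cells, while EZH1 predominates in resting cells, and loss of KMT2D alters germinal center B cells.

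The libraries held between 11263753 reads (XYF F6) and 19962022 reads (XYM 13). They held between 14595054 and 17644855 reads in XXF mice, 11263753 and 19040738 in XYF mice, 12119957 and 18099717 in XXM mice, and 15887402 and 19962022 in XYM mice. Reads on a single member in a single mouse ranged from 174, on Paxip1 in XXM 2, to 8066, on Kmt2d in XYM 16. Levels are given below as log2(RPKM + 1), called the log2 level, with mice in the order of their numbers (F1 to F5, F6 to F9, then 2, 5, 6, 7, 8 and 9, 12, 13, 15, 16).

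Libraries XYF F6, XYF F9 and XYM 9 stood apart from the others before any member was considered. Their scores for 8 proliferation markers, the mean log2 level of the markers centred on all mice, were 1.37, 1.58 and 1.25, while the other 16 mice lay between -0.90 and 0.60. The summed RPKM of 8 myeloid markers was 45684 in XYF F9 and 46325 in XYM 9, against 16205 or less in the other 17 mice. Markers of B cells (most abundant Cd79b, mean RPKM 865), T cells (Cd3g, 168) and erythroid cells (Hbb-bs, 10148) were read in every mouse, and no marker searched was at 0 reads in a library. Markers of plasma cells (most abundant Jchain, mean RPKM 957) and myeloid cells (S100a9, 4978) were read in every mouse as well. The erythroid sum ran from 1587 in XYM 16 to 48004 in XYF F6. The methods describe lysis of red cells in preparing spleen cells, and its part in this spread was not tested. In such bulk samples fewer cells of a type and less RNA per cell cannot be told apart.

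Eed (54.2), Suz12 (43.8) and Ezh2 (32.0) had the highest mean RPKM of the members over the 19 mice, followed by Ezh1 (19.3), Jarid2 (16.9), Kmt2c (14.9), Kmt2d (13.1), Kdm6b (9.96), Ncoa6 (9.53) and Paxip1 (5.48). Mean log2 levels placed Eed at or above 88.4% of the genes tested and Paxip1 at or above 36.9%. The plot of log2 levels by mouse shows that the 4 groups overlapped for most members.

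**Figure D1:**
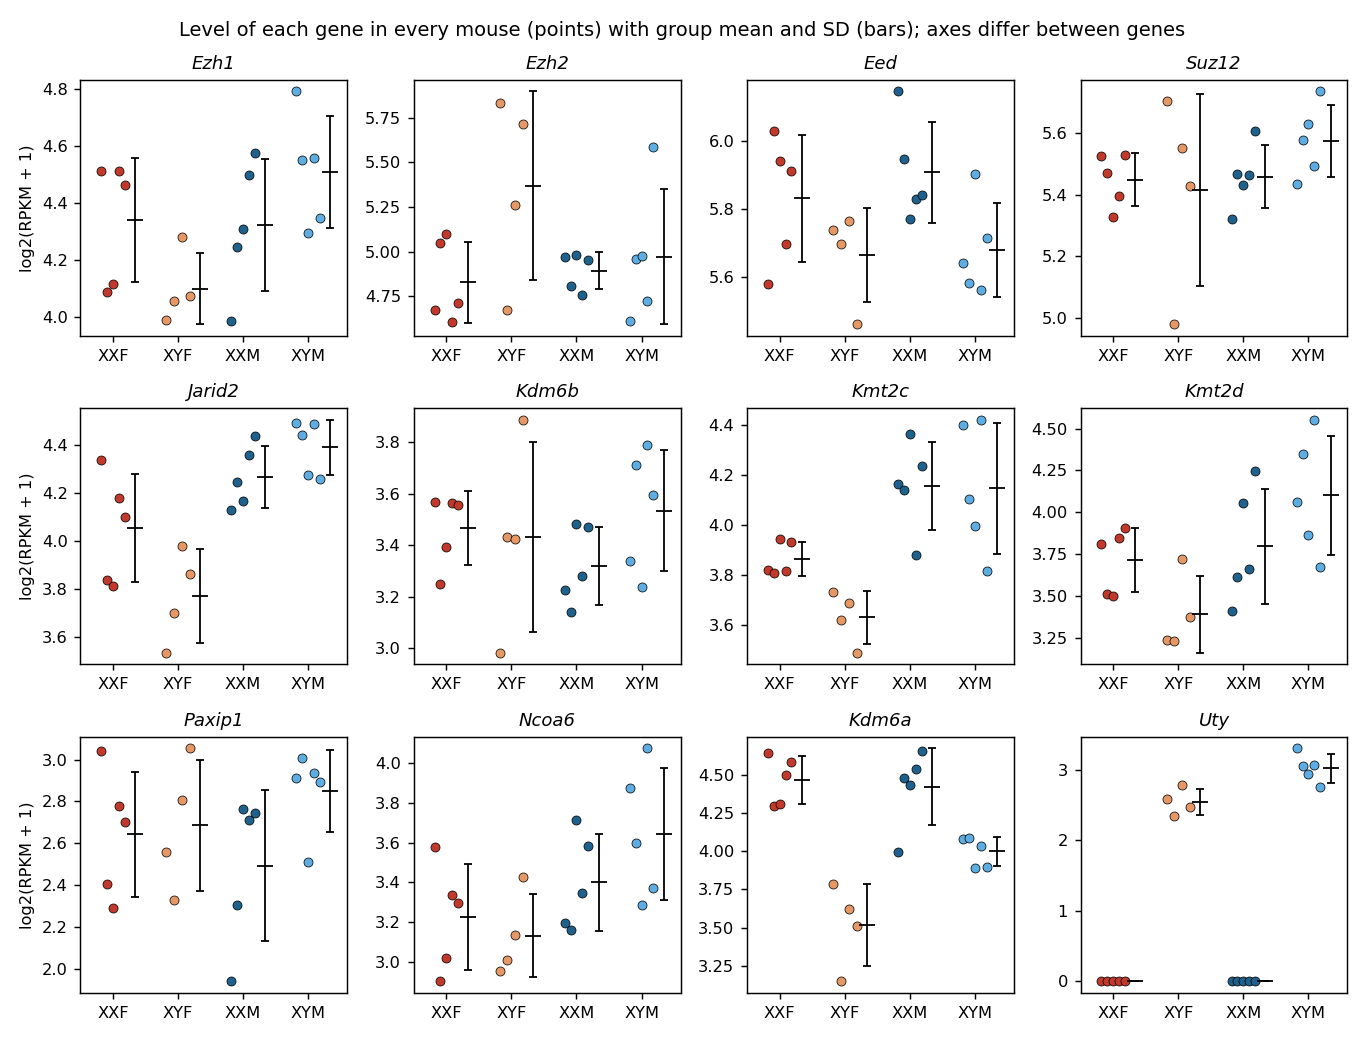
The log2 level, log2(RPKM + 1), of each of the 10 members, Kdm6a and Uty in every mouse (points) with the mean and SD of the group (bars), with a separate vertical axis for each gene. Jarid2 lay between 4.26 and 4.49 in the 5 XYM mice and between 3.54 and 3.98 in the 4 XYF mice, and Uty was at 0 in all 10 XX mice.

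Differences between groups were tested with limma on the log2 levels, for all 14186 genes together, and p values were adjusted by the Benjamini-Hochberg method over these genes. A log2 difference is the difference of 2 group means of log2 levels, given with its standard error (SE). A gene was called when it passed both an adjusted p under 0.1 and a fold of 1.5 in either direction on the log2 scale. Between XXF and XYF mice 1.38% of genes and 0 of the 10 members were called. At an unadjusted p under 0.05 limma gave 18.7% of genes and 2 members, Ezh2 and Jarid2, and limma with voom weights on the recovered reads called 0. Without XYF F7, 1 member, Ezh2, was called. Between XXM and XYM mice 2.96% of genes and 0 members were called, with 27.1% of genes and 1 member (Eed) at an unadjusted p under 0.05 and 0 called with voom. With the XX minus XY difference averaged over both gonadal sexes 1.72% of genes and 0 members were called, with 22.8% of genes and 2 members (Ezh2 and Eed) at an unadjusted p under 0.05 and 0 called with voom. The median log2 difference of the 10 members was 0.13 in females, -0.15 in males and -0.02 over both, and that of all genes tested was 0.06, 0.01 and 0.03. With a score of long transcripts as a covariate, an alternative chosen after seeing the data and described further below, the members' median was 0.06 in females and turned to 0.05 in males (7 of 10 members above 0 in place of 2) and to 0.05 over both. The number of genes called rested on single mice, since it ran from 57 genes without XYF F9 to 850 without XYF F7 in females, and from 51 without XXM 2 to 1211 without XYM 15 in males. Over both it ran from 148 without XYF F9 to 518 without XYF F7.

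Between males and females of XX mice 4.22% of genes and 0 members were called by limma, with 19.8% of genes and 1 member (Kmt2c) at an unadjusted p under 0.05 and 0 called with voom. Between males and females of XY mice 15.8% of genes were called, and 2 of the 10 members, Jarid2 and Kmt2d, both higher in males. That number of members was 1 without XYF F6 and 3 without XYF F7, XYF F9, XYM 15 or XYM 9, and the number of all genes called ran from 1396 without XYF F6 to 2956 without XYM 9. By the adjusted p alone 39.9% of genes and 5 of the 10 members (Jarid2, Kmt2d, Kmt2c, Ncoa6 and Ezh1) passed in XY mice. Those shares of members lay near the shares of all genes. Averaged over XX and XY mice 7.32% of genes and 0 members were called, with 41.7% of genes and 5 members at an unadjusted p under 0.05 and 0 called with voom. By the adjusted p alone 38.5% of genes and 4 members (Jarid2, Kmt2c, Kmt2d and Ncoa6) passed in that average, of which Kmt2d (0.11) and Ncoa6 (0.05) no longer did with the long-transcript covariate. The median log2 difference of the members between males and females was 0.07 in XX mice and 0.29 in XY mice, and that of all genes was -0.01 and 0.02. In XY mice 9 of the 10 members lay above 0, Ezh2 below it, but with median ratio rescaling Eed turned below 0 as well, and so it did without XYF F9 or XYM 15, while Kdm6b turned without XYF F6. With the long-transcript covariate 5 of the 10 members lay above 0 in XY mice, Ezh1, Ezh2, Kdm6b, Paxip1 and Ncoa6 lay below it, and the members' median was 0.06 in place of 0.29. XYM and XYF mice did not overlap in that score, so that fit cannot tell the score apart from the group.

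Whether XX and XY mice differed to another extent in females than in males was tested as the difference between these 2 differences. Of all genes 0.0846% were called in that test, and 0 members, with 21% of genes and 3 members (Ezh1, Jarid2 and Kmt2d) at an unadjusted p under 0.05 and 0 called with voom. For Kmt2d the difference of differences was 0.63 (SE 0.26, limma's adjusted p = 0.182), with XXF above XYF by 0.32 and XXM against XYM at -0.30. It was called without XYM 9 (0.74), where the number of all genes called was 1692 in place of 12, and called in no other fit with 1 mouse left out. For Jarid2 the value was 0.41 (SE 0.16, limma's adjusted p = 0.173) and for Ezh1 0.43 (SE 0.18, adjusted p = 0.201). With the long-transcript covariate the value was 0.07 for Kmt2d and 0.05 for Jarid2, and it turned to -0.01 for Ezh1. The comparisons share mice, XYF being the reference both for XXF and for XYM, so that a low or high XYF value enters both.

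**Figure D2:**
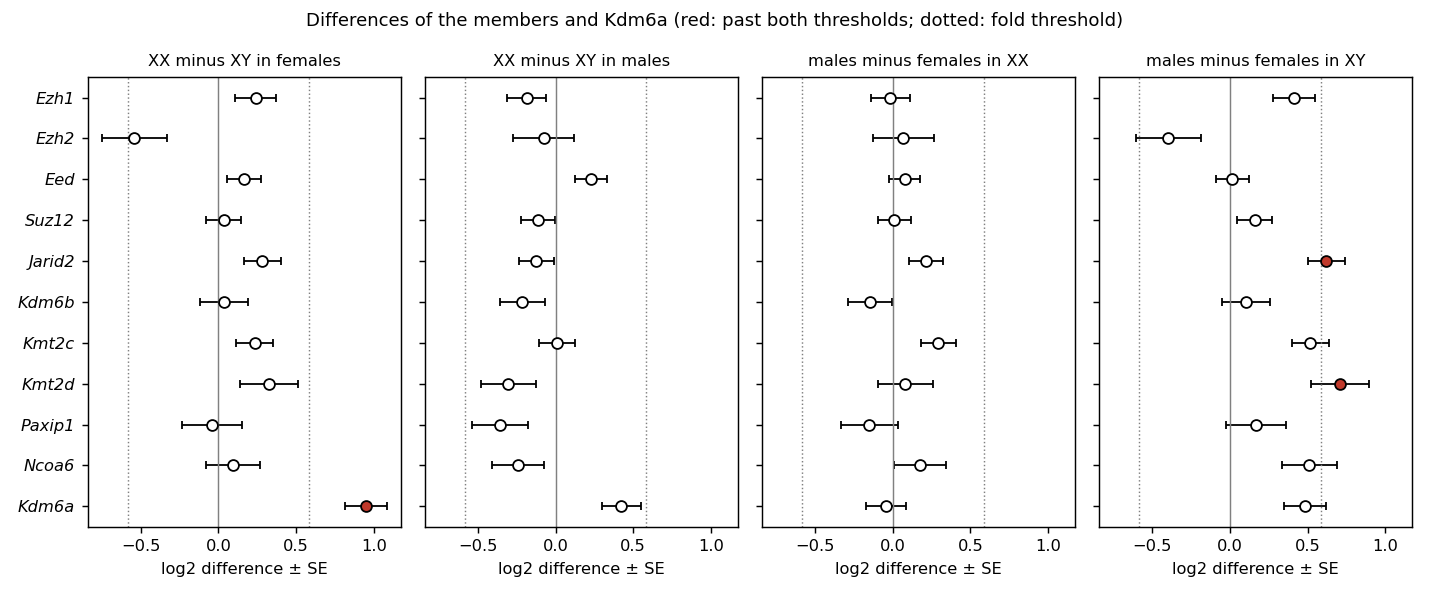
Log2 differences (points) with SE (bars) of the 10 members and Kdm6a in 4 comparisons, with the called genes in red and the fold threshold dotted. Jarid2 (0.62) and Kmt2d (0.71) were called between males and females of XY mice, and Kdm6a (0.95) between XXF and XYF mice.

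Ezh2 encodes the PRC2 methyltransferase of dividing cells. Its log2 level was 4.67, 5.05, 5.10, 4.61 and 4.71 in XXF mice and 5.83, 4.67, 5.26 and 5.72 in XYF mice. In males the log2 level of Ezh2 was 4.97, 4.81, 4.98, 4.76 and 4.95 with XX and 5.59, 4.61, 4.96, 4.98 and 4.72 with XY chromosomes. The highest 3 of the 19 mice were XYF F6, XYF F9 and XYM 9, the same libraries that stood apart in proliferation markers, and 3 of 4 XYF mice lay above all 5 XXF mice. The mean log2 level ± SD of Ezh2 was 5.37 ± 0.53 for XYF (n = 4) and 4.83 ± 0.23 for XXF mice (n = 5). The log2 difference of Ezh2 between XXF and XYF mice was -0.54 (SE 0.21), which did not pass (limma's adjusted p = 0.193). It was -0.77 and called without XYF F7, the XYF mouse with the lowest Ezh2, but -0.14 without XYF F6, XYF F9 and XYM 9, a fit chosen after seeing the data. Leaving out the XYF mice lowest or highest in Ezh2 moves its XYF mean by construction. The second of these fits keeps only XYF F7 and XYF F8 of the XYF mice. Between XYM and XYF mice the log2 difference was -0.40 (SE 0.21, limma's adjusted p = 0.154), and -0.63 and called without XYF F7, but -0.15 without XYF F6, XYF F9 and XYM 9 and -0.06 with the long-transcript covariate. For XXM against XYM mice the log2 difference of Ezh2 was -0.08 (SE 0.20, limma's adjusted p = 0.819). It was 0.08 without XYM 9 and -0.29 with the long-transcript covariate. In the order of group means XYF, XYM, XXM, XXF no neighbours of Ezh2 differed beyond the larger SD of the pair.

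Ezh1 encodes the other methyltransferase of PRC2. Its log2 level was 4.51, 4.09, 4.12, 4.51 and 4.46 in XXF mice and 3.99, 4.06, 4.28 and 4.07 in XYF mice. In males the log2 level of Ezh1 was 3.99, 4.24, 4.31, 4.50 and 4.58 with XX and 4.35, 4.79, 4.55, 4.30 and 4.56 with XY chromosomes. Every XYM mouse lay above every XYF mouse, the nearest being XYM 15 (4.30) and XYF F8 (4.28), while the XXF and XXM mice overlapped. The log2 difference between XYM and XYF mice was 0.41 (SE 0.13, limma's adjusted p = 0.0311), under the fold threshold, and it turned to -0.02 with the long-transcript covariate. Groups that do not overlap were found between XYM and XYF mice for 13.8% of genes and 3 of the 10 members (Ezh1, Jarid2 and Kmt2c), and between XXF and XYF mice for 5.65% of genes and 1 member (Kmt2c). Between XXM and XYM mice 4.07% of genes and 0 members did not overlap, and between XXM and XXF mice 9.71% of genes and 0 members.

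The ratio of Ezh2 to Ezh1, taken from RPKM within each mouse, put both on 1 scale. It was 1.12, 2.01, 2.04, 1.07 and 1.20 in XXF mice and 3.76, 1.57, 2.03 and 3.26 in XYF mice. In males the ratio was 2.04, 1.51, 1.63, 1.21 and 1.31 with XX and 2.43, 0.877, 1.35, 1.63 and 1.13 with XY chromosomes. XYF F6 and XYF F9 had the highest ratios of the 19 mice, and XYM 12 was the only mouse with less Ezh2 than Ezh1. The group means were 2.65 ± 1.03 (SD, n = 4) in XYF mice and 1.48 to 1.54 in the 3 other groups.

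Eed encodes the subunit that binds methylated H3K27, and Suz12 the scaffold of PRC2. The log2 level of Eed lay between 5.46 (XYF F9) and 6.14 (XXM 2), and with females and males averaged XX mice lay above XY mice by a log2 difference of 0.20 (SE 0.07, limma's adjusted p = 0.14). In males 4 of 5 XYM mice had less Eed than every XXM mouse, with a log2 difference of 0.23 (SE 0.10, limma's adjusted p = 0.165), which was 0.03 with the long-transcript covariate. Between males and females the log2 difference of Eed was 0.08 in XX and 0.02 in XY mice. The log2 level of Suz12 lay between 4.98 in XYF F7 and 5.74 in XYM 9, and the other 17 mice kept between 5.32 and 5.70. Its log2 differences ran from -0.12 to 0.16 over the 4 comparisons of 2 groups, with limma's adjusted p values of 0.30 or more, so that no difference in Suz12 was detected at this number of mice. Suz12 and Ezh2 both had their lowest XYF value in XYF F7, and without that mouse the log2 difference of Suz12 between XXF and XYF mice turned from 0.03 to -0.11. It turned below 0 with median ratio rescaling as well.

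The promoters of the 4 core genes of PRC2 are shown because their products form 1 complex. Ezh2 and Suz12 were also the 1 pair of them with a positive correlation that passed, given further below. That correlation (r = 0.666) fell to 0.092 without XYF F7 and XYM 9, and a link of the windows to it was not tested. The sequences come from the RefSeq promoter windows of GRCm38.p6, 250 bases before to 50 bases after a transcript start, which held 9 of the 10 members (Kdm6b was not among them). Capitals mark a match, on either strand, to 1 of 4 forms of the E2F motif, TTTCCCGC, TTTGGCGC, TTTCGCGC and TTTGCCGC. Ezh2 is read from the minus strand of chr6:47594981-47595280, Suz12 from the plus strand of chr11:79992856-79993155, Ezh1 from the minus strand of chr11:101226414-101226713 and Eed from the minus strand of chr7:89980927-89981226. The annotated span of Ezh2 ends at 47595270, so that most of its window lies inside the gene.
Ezh2: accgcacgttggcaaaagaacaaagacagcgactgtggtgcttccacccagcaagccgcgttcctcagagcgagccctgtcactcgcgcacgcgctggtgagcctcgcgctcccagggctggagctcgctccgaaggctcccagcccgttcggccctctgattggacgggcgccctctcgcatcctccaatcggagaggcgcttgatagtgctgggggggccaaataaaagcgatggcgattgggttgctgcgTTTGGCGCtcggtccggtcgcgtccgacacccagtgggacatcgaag
Suz12: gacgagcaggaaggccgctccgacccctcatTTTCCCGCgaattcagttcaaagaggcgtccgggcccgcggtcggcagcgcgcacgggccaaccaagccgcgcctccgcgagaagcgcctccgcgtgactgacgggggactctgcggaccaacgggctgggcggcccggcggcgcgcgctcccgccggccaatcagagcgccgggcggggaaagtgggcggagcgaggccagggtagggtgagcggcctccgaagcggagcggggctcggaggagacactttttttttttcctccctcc
Ezh1: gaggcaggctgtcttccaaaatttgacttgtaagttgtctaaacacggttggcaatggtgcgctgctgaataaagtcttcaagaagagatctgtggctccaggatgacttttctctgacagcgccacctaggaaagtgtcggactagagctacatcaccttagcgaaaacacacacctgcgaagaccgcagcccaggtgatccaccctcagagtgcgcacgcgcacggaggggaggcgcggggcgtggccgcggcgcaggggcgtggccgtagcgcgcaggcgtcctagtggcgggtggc
Eed: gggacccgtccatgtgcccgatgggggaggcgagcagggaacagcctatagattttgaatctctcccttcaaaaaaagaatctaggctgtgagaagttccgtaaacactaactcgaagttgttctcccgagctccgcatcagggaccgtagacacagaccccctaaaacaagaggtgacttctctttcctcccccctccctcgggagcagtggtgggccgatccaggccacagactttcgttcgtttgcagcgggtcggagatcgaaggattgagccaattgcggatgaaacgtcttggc
The window of Ezh2 held TTTGGCGC 4 bases after the transcript start used, which lies inside the annotated span of the gene. That form was found in 0.514% of the 32851 windows. The window of Suz12 held TTTCCCGC 219 bases before the start, a form found in 1.07%. Any of the 4 forms was found in 2.26% of windows, and in 0 of the windows of Ezh1 and Eed. CCAAT, found in 37.4% of windows, occurred 3 times in that of Ezh2, 1 time each in those of Suz12 and Eed and not in that of Ezh1. The GC content was 64.3% for Ezh2, 71.0% for Suz12, 59.3% for Ezh1 and 54.7% for Eed, against a median of 52.7% over all windows. These letters describe the windows and do not show that a factor binds there.

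Jarid2 encodes a DNA-binding cofactor of PRC2. Its log2 level was 4.34, 3.84, 3.81, 4.18 and 4.10 in XXF mice and 3.54, 3.70, 3.98 and 3.86 in XYF mice. In males the log2 level of Jarid2 was 4.13, 4.25, 4.17, 4.36 and 4.44 with XX and 4.26, 4.49, 4.44, 4.28 and 4.49 with XY chromosomes. All 5 XYM mice lay above all 4 XYF mice, XXM and XXF mice overlapped, and the 3 lowest of the 19 values were in XYF F6, XYF F7 and XXF F3. The log2 difference between XYM and XYF mice was 0.62 (SE 0.12, limma's adjusted p = 0.00304), with each of the 5 XYM mice above each of the 4 XYF mice. It fell short of the fold threshold at 0.54 without XYF F6, at 0.57 with median ratio rescaling and at 0.58 without XYF F6, XYF F9 and XYM 9. With the long-transcript covariate it was 0.26 and passed neither threshold. Between XXM and XXF mice the log2 difference of Jarid2 was 0.21 (SE 0.11, limma's adjusted p = 0.305), and averaged over XX and XY mice the males were higher by 0.42 (SE 0.08, adjusted p = 0.0016), or by 0.24 with the long-transcript covariate. Between XXF and XYF mice the log2 difference was 0.28 (SE 0.12, limma's adjusted p = 0.219), with 3 of 5 XXF mice above all 4 XYF mice, and between XXM and XYM mice -0.12 (SE 0.11, adjusted p = 0.465). With the long-transcript covariate the first of these was 0.16 and the second turned above 0. In the order of group means XYM, XXM, XXF, XYF the gap between XXF and XYF alone exceeded the larger SD of the pair.

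Kdm6b encodes an H3K27 demethylase whose relatives are the X-linked Kdm6a and the Y-linked Uty. The log2 level of Kdm6b lay between 2.98 in XYF F6 and 3.89 in XYF F9, so that the XYF mice held both ends of the range. Its log2 differences were 0.04 between XXF and XYF mice, -0.21 between XXM and XYM, -0.15 between XXM and XXF and 0.10 between XYM and XYF, each with an adjusted p of 0.328 or more from limma. The first of these turned below 0 without XYF F6 (-0.11), with median ratio rescaling and with quantile normalization, and the last turned to -0.05 without XYF F6. Both turned below 0 with the long-transcript covariate. Kdm6a had log2 levels of 4.64, 4.30, 4.31, 4.50 and 4.58 in XXF mice and 3.78, 3.15, 3.62 and 3.51 in XYF mice. In males the log2 level of Kdm6a was 4.0, 4.48, 4.44, 4.54 and 4.66 with XX and 3.90, 4.08, 4.09, 3.89 and 4.03 with XY chromosomes. The XXF and XYF mice did not overlap, and in males XXM 2 lay among the XYM mice. The log2 difference of Kdm6a was 0.95 in females (SE 0.13, limma's adjusted p = 0.00144, 5 of 5 XXF mice above 4 of 4 XYF mice) and 0.42 in males (SE 0.13, adjusted p = 0.0857, 4 of 5 XXM mice above all 5 XYM mice, under the fold threshold), and the difference between the 2 was 0.53 (SE 0.18, adjusted p = 0.148). With the long-transcript covariate Kdm6a was called in males as well, and its log2 difference in females was 0.84.

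The ratio of Kdm6a to Kdm6b, taken from RPKM within each mouse, had a mean of 2.10 ± 0.11 in the 5 XXF mice and of 2.30 ± 0.38 in the 5 XXM mice (± SD). Its mean was 1.14 ± 0.51 in the 4 XYF mice and 1.43 ± 0.24 in the 5 XYM mice. Of the XXF mice each lay above each XYF mouse, the nearest values being 1.98 (XXF F3) and 1.85 (XYF F6), and each XXM mouse lay above each XYM mouse, the nearest being 1.80 (XXM 2) and 1.75 (XYM 12). The 2 groups of XX mice thus had more Kdm6a per Kdm6b RPKM than the XY mice of the same gonads. The Kdm6b level itself was not called different in any comparison. Its mean log2 level was 3.32 in XXM and 3.53 in XYM mice, however, and this gap enters the ratio in males. XXM 2, whose Kdm6a lay among the XYM mice, had a Kdm6b log2 level of 3.22. Uty had 0 reads in each of the 10 XX mice and between 295 and 763 in each of the 9 XY mice, with a mean log2 level ± SD of 2.55 ± 0.19 for XYF (n = 4) and 3.03 ± 0.20 for XYM mice (n = 5). Both Kdm6a (0.48, SE 0.13, limma's adjusted p = 0.0156) and Uty (0.48, SE 0.10, adjusted p = 0.00485) lay higher in XYM than in XYF mice by the adjusted p alone. In the order of group means of Kdm6a (XXF, XXM, XYM, XYF) the gaps between XXM and XYM and between XYM and XYF exceeded the larger SD of the pair.

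Kmt2d encodes an H3K4 methyltransferase of enhancers and had the longest exons of the members, 19827 bases. Its log2 level was 3.81, 3.51, 3.50, 3.84 and 3.90 in XXF mice and 3.24, 3.23, 3.72 and 3.37 in XYF mice. In males the log2 level of Kmt2d was 3.41, 3.61, 4.05, 3.66 and 4.24 with XX and 3.67, 4.06, 4.35, 3.86 and 4.55 with XY chromosomes. The 2 highest mice were XYM 16 and XYM 13, the 2 lowest XYF F7 and XYF F6, and 4 of 5 XYM mice lay above all 4 XYF mice. The log2 difference between XYM and XYF mice was 0.71 (SE 0.19, limma's adjusted p = 0.0125). It stayed called in each of the 19 fits with 1 mouse left out, where it ran from 0.60 without XYM 16 to 0.82 without XYF F8. With the long-transcript covariate it was 0.15 and not called. Between XXM and XXF mice the log2 difference of Kmt2d was 0.08 (SE 0.18, limma's adjusted p = 0.859), and -0.03 without XXM 8. Between XX and XY mice it was 0.32 in females (SE 0.19, limma's adjusted p = 0.351, and 0.12 with that covariate) and -0.30 in males (SE 0.18, adjusted p = 0.264). The value in males turned above 0 with that covariate.

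Kmt2c encodes the close relative of KMT2D, and its exons were 16820 bases long. The log2 level of Kmt2c was 3.82, 3.81, 3.94, 3.81 and 3.93 in XXF mice and 3.73, 3.62, 3.69 and 3.49 in XYF mice. In males it was 4.16, 4.14, 4.36, 3.88 and 4.23 with XX and 3.82, 4.40, 4.10, 3.99 and 4.42 with XY chromosomes. The 4 XYF mice were the 4 lowest of the 19, below every XXF and every XYM mouse, and XXM 7 and XYM 9 were the only males within the range of the XXF mice. The log2 difference between XYM and XYF mice was 0.52 (SE 0.12, limma's adjusted p = 0.00678, 5 of 5 XYM mice above all 4 XYF mice), and 0.60 and called without XYM 9, but 0.35 and past neither threshold with the long-transcript covariate. Between XXM and XXF mice the log2 difference of Kmt2c was 0.29 (SE 0.11, limma's adjusted p = 0.145), with 4 of 5 XXM mice above all 5 XXF mice. Averaged over XX and XY mice the males were higher by 0.41 (SE 0.08, limma's adjusted p = 0.00218), or by 0.32 with that covariate. Between XXF and XYF mice the log2 difference was 0.23 (SE 0.12, limma's adjusted p = 0.297), and between XXM and XYM mice 0.01 (SE 0.11, adjusted p = 0.966), turning below 0 without XXM 6, XXM 8, XYM 9, XYM 13 or XYM 15 (down to -0.07). In the order of group means XXM, XYM, XXF, XYF the gaps between XYM and XXF and between XXF and XYF exceeded the larger SD of the pair.

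The ratio of Kmt2d to Kmt2c RPKM within each mouse lay between 0.569 (XXM 2) and 1.20 (XYM 13). The mean ± SD was 0.903 ± 0.136 for XXF (n = 5), 0.843 ± 0.156 for XYF (n = 4), 0.780 ± 0.168 for XXM (n = 5) and 0.977 ± 0.169 for XYM mice (n = 5). The 4 groups overlapped in this ratio.

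Long transcripts as a class lay higher in XYM than in XYF mice, and Kmt2d and Kmt2c are among them. Of the 710 genes with at least 7060 bases of exons, the longest 5% of those tested, 87.0% had a log2 difference above 0 between XYM and XYF mice, against 51.6% of all genes, and their median was 0.45 against 0.02. Between XXM and XXF mice the median of the long genes was 0.01, between XXF and XYF mice 0.18 and between XXM and XYM mice -0.28. A long-transcript score, the mean log2 level of the 708 long genes that are not members, centred on all mice, had a mean ± SD of -0.18 ± 0.11 for XYF (n = 4), -0.04 ± 0.18 for XXF (n = 5), -0.04 ± 0.13 for XXM (n = 5) and 0.22 ± 0.20 for XYM mice (n = 5). The mice with the highest scores were XYM 12 (0.39), XYM 16 (0.38) and XYM 13 (0.31), and the lowest were XYF F6 (-0.28) and XYF F7 (-0.26). Every XYM mouse scored above every XYF mouse, the nearest being XYM 15 (-0.05) and XYF F8 (-0.06). With this score as a covariate in limma, an alternative chosen after seeing the data, 0 members and 184 genes were called between XYM and XYF mice. Because the score goes with the group there, that fit cannot tell a group difference apart from the score. In that fit the log2 difference was 0.15 for Kmt2d, 0.26 for Jarid2, 0.35 for Kmt2c, -0.02 for Ezh1 and -0.07 for Ncoa6. What this score follows, RNA quality or other differences between libraries, was not tested. The plot of differences by exon length shows Kmt2d (0.71) and Kmt2c (0.52) at the long end, where the median over the longest of 10 equal bins of genes was 0.38 in XY and 0.01 in XX mice.

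**Figure D3:**
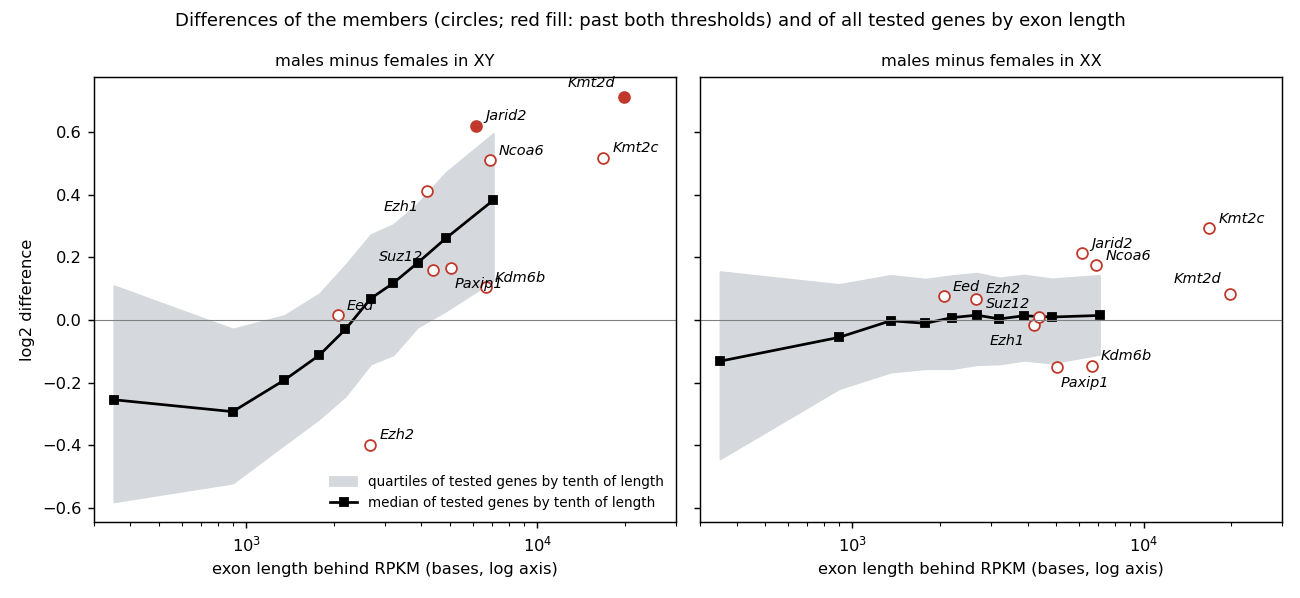
Log2 difference between males and females (vertical axis) against exon length in bases (horizontal axis, logarithmic) for the 10 members (circles, called ones filled), with the median and quartiles of all tested genes in 10 equal bins by length, in XY mice (left) and XX mice (right). In XY mice the median was -0.26 in the shortest bin, -0.29 in the next and 0.38 in the longest, and in XX mice it lay between -0.13 and 0.02 throughout.

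The promoter windows of Kmt2c and Kmt2d are shown since both writers passed the adjusted p between XYM and XYF mice. Capitals mark the GC box letters GGGCGG or, for the other strand, CCGCCC, with overlapping matches counted. Kmt2c is read from the minus strand of chr5:25498734-25499033 and Kmt2d from the minus strand of chr15:98871156-98871455 (GRCm38.p6, RefSeq), the latter of which lies inside the annotated span of the gene.
Kmt2c: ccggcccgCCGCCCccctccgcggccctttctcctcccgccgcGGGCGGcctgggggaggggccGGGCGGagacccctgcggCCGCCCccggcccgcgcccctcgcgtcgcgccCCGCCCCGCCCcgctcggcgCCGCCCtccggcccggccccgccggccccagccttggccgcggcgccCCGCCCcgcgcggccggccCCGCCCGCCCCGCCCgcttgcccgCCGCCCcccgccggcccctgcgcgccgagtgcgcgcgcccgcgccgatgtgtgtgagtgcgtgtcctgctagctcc
Kmt2d: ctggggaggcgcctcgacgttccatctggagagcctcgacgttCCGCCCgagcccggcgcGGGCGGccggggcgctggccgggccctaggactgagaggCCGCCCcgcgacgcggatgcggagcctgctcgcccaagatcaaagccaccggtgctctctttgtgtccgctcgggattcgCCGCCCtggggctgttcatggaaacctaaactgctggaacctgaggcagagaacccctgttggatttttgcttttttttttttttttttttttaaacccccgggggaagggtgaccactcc
The window of Kmt2c held 12 matches, as many as 0.0213% of all 32851 windows hold, and that of Kmt2d held 4, as many as 5.49% hold. At least 1 match was found in 35.7% of windows. Kmt2c had a GC content of 88.0% with 56 CpG and Kmt2d 62.7% with 27 CpG, where the median window had 7 CpG.

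Paxip1 and Ncoa6 encode subunits of the complexes of KMT2C and KMT2D. The log2 level of Ncoa6 was 3.58, 2.90, 3.02, 3.34 and 3.29 in XXF mice and 2.96, 3.01, 3.14 and 3.43 in XYF mice. In males the log2 level of Ncoa6 was 3.20, 3.16, 3.72, 3.35 and 3.58 with XX and 3.37, 3.88, 3.60, 3.29 and 4.08 with XY chromosomes. XYM 16 and XYM 12 were the 2 highest of the 19 mice, and 3 of 5 XYM mice lay above all 4 XYF mice. The log2 difference of Ncoa6 between XYM and XYF mice was 0.51 (SE 0.18, limma's adjusted p = 0.0381), under the fold threshold, and passed it without XYF F9 (0.61) or XYM 15 (0.60). Over the 19 fits that left out 1 mouse it ran from 0.40 (without XYM 16) to 0.61, with limma's adjusted p values from 0.0198 to 0.118 (without XYF F6). With the long-transcript covariate it turned to -0.07. Averaged over XX and XY mice it was 0.34 (SE 0.12, limma's adjusted p = 0.0418), but 0.05 and past no threshold with that covariate, and the log2 difference between XX and XY mice was 0.09 in females and -0.24 in males, with adjusted p values of 0.79 and 0.337. With that covariate the difference in females turned below 0 and that in males above 0. Paxip1 lay between a log2 level of 1.94 in XXM 2 and 3.05 in XYF F9, and 4 of its 5 XYM values were between 2.89 and 3.01. Its log2 differences were -0.04 between XXF and XYF mice, -0.36 between XXM and XYM (SE 0.18, limma's adjusted p = 0.205), -0.15 between XXM and XXF and 0.17 between XYM and XYF. The first of these turned above 0 without XXF F2, XXF F3 or XYF F9 (up to 0.08), and the second and the last turned sign with the long-transcript covariate. The second was -0.22 without XXM 2. All 4 groups overlapped in Paxip1.

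Marker lists moved in each of the 4 comparisons of 2 groups, also where no member was called. Between XYM and XYF mice 7 of 8 T cell markers, 7 of 7 erythroid markers and 4 of 8 proliferation markers were called lower in XYM mice, and 7 of 8 B cell markers were called higher. Without XYF F6 only 1 proliferation marker was called, without XYF F7 or XYM 9 all 8 were, and without XYF F7 only 4 T cell markers were called. With the long-transcript covariate 0 T cell, 0 erythroid and 0 proliferation markers and 1 B cell marker were called by limma. The T cell markers summed to an RPKM between 521 and 1355 in XYF and between 326 and 666 in XYM mice, the B cell markers to 1324 to 2630 and 2276 to 3863, and the erythroid markers to 15766 to 48004 and 1587 to 14641. Their part in the differences of Jarid2 and Kmt2d was not tested. Between XXM and XXF mice 8 of 8 T cell markers were called lower in males (median log2 difference -1.71, against -0.78 in XY mice), with sums between 332 and 493 in XXM and between 1083 and 1501 in XXF mice. Between XXM and XYM mice 3 of 6 germinal center B cell markers (most abundant Bcl6, mean RPKM 16.7) were called lower in XXM mice. That number was 1 without XXM 2, XYM 12, XYM 13 or XYM 16, 5 without XYM 9 and 0 with the long-transcript covariate. Their sums lay between 16.9 and 32.2 in XXM and between 28.0 and 58.8 in XYM mice. In that comparison 3 of 6 NK cell markers were called higher in XXM mice, but 1 without XXM 2, XXM 5, XXM 6, XYM 12, XYM 13 or XYM 16 and 0 with the long-transcript covariate. The NK cell markers summed to between 323 and 395 in XXM and between 59.5 and 282 in XYM mice. There 3 of 8 T cell markers were also called lower in XXM mice (0 at an adjusted p under 0.05). Of 7 erythroid markers 2 were called higher in XXM mice (0 without a filter on low values). Between XXF and XYF mice 5 of 6 NK cell markers were called higher in XXF mice (most abundant Gzma, mean RPKM 201), but 2 of 6 without XXF F5, XYF F6 or XYF F9 and 3 of 6 without XXF F4. Those markers summed to an RPKM between 384 and 517 in XXF and between 81.2 and 239 in XYF mice, and their part in the results was not tested.

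Within groups, each member was set against each of 8 marker scores over the 19 mice, with group means removed from both. Pearson's r and Spearman's rho were tested by 100000 permutations of mice within groups, 2-sided, and adjusted over the 80 pairs. By r, 3 of the 80 pairs passed an adjusted p under 0.1, and without 1 mouse the number ran from 1 (without XYF F7 or XYF F8) to 6 (without XYM 15). Ezh2 varied with the erythroid score (r = 0.843, p = 0.00026, adjusted p = 0.0208, rho = 0.774, p = 0.00088, adjusted p = 0.0392, n = 19, permutation tests). Without the 2 mice whose deviation on that score lay farthest from the median deviation, XYM 9 and XXM 8, r was 0.814 (the same measure chose the mice left out below, on the score or on the gene named first). Ezh2 also varied with the proliferation score (r = 0.861, p = 0.00122, adjusted p = 0.0488, rho = 0.74, p = 0.00266, adjusted p = 0.0709, n = 19, permutation tests). Without XYM 9 and XYF F7 that r was 0.572 and no longer passed, so that this relation rests on those mice. It also missed the threshold without XYF F7 (r = 0.795), XYF F8 (0.859) or XYM 9 (0.799) alone. Ezh2 ran against the B cell score (r = -0.816, permutation p = 0.00519, adjusted p = 0.104, rho = -0.746, permutation p = 0.00619) and the NK cell score (r = -0.752, permutation p = 0.00846, adjusted p = 0.135, rho = -0.619, permutation p = 0.0134), neither of which passed.

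The proliferation markers (most abundant Top2a, mean RPKM 42.0, none at 0 reads) summed to an RPKM of 195, 157, 188, 156 and 128 in XXF mice and 449, 132, 265 and 553 in XYF mice. In males they summed to 101, 88.0, 156, 127 and 183 with XX and 424, 109, 173, 105 and 128 with XY chromosomes. The XYF mouse with the lowest sum, XYF F7, was also the XYF mouse with the lowest Ezh2, and the 3 highest mice were the 3 highest in Ezh2. Between XXF and XYF mice 0 of the 8 proliferation markers were called by limma, with a median log2 difference of -0.91 beside -0.54 for Ezh2. All 8 were called without XYF F7, as Ezh2 was, and 2 without XYM 9. The part of dividing cells in the Ezh2 differences was not tested.

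**Figure D4:**
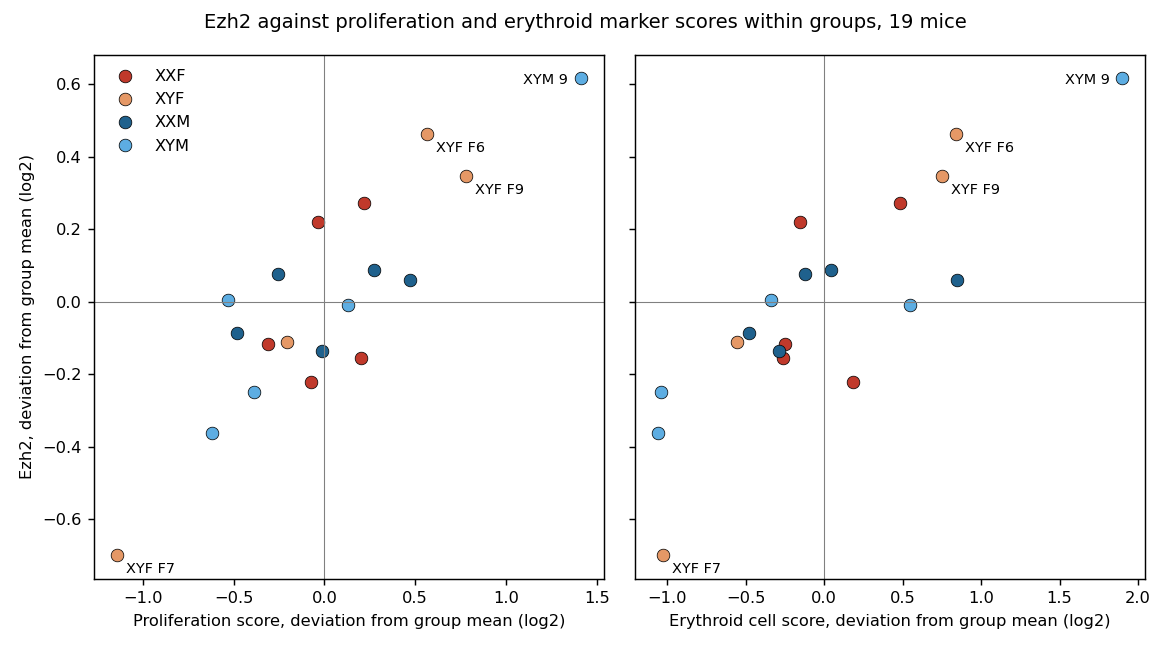
Deviation of the Ezh2 log2 level from its group mean (vertical axis, log2) against the deviation of the proliferation score (left) and the erythroid score (right), 1 point per mouse, 19 mice. XYM 9 and XYF F7 lie at the 2 ends of the relation with proliferation (r = 0.861, or 0.572 without them).

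Paxip1 ran against the T cell score (r = -0.653, p = 0.00222, adjusted p = 0.0592, rho = -0.728, p = 0.00098, adjusted p = 0.0392, n = 19, permutation tests), and r was -0.791 without XYF F9 and XYM 9. It missed the threshold without any 1 of XXF F1, XXF F2, XYF F6, XYF F7, XYF F8, XYF F9, XXM 2 or XXM 8, with r between -0.74 and -0.59 over all fits that left out 1 mouse. For Jarid2, Kmt2d, Kmt2c, Kdm6b, Ncoa6, Ezh1, Eed and Suz12 no pair with a marker score passed, the smallest adjusted p being 0.155 for Kmt2c with the myeloid score (r = -0.627, permutation p = 0.0116, rho = -0.533, permutation p = 0.0587).

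Among themselves the 10 members and Kdm6a gave 55 pairs, of which 29 passed an adjusted permutation p under 0.1, 21 with a positive and 8 with a negative r. The median r over all 55 pairs was 0.179. The share that pairs of other genes would give was not computed. High correlations with all genes were widespread for some of these genes and rare for others. The share of genes with an r of deviations above 0.8 was largest for Ezh1 (7.6%) and Jarid2 (7.08%) and smallest for Suz12 (0.261%) and Kmt2c (0.169%). Ezh1 and Jarid2 were the pair with the smallest p (r = 0.853, p = 1e-05, the smallest the permutations can give, adjusted p = 0.00055, rho = 0.905 with the same p, n = 19), and r was 0.905 without XXM 2 and XYM 12. Eed ran against Paxip1 (r = -0.859, permutation p = 0.00013, adjusted p = 0.00238, rho = -0.84, permutation p = 0.00014, and r = -0.796 without XXF F1 and XYF F9). It also ran against Ncoa6 (r = -0.819, permutation p = 9e-05, adjusted p = 0.00238, rho = -0.791, permutation p = 0.00025, and r = -0.751 without the same mice). Each of these 3 pairs passed in every fit that left out 1 mouse. Of the pairs of Eed that passed, 6 with members and 1 with Kdm6a, each had a negative r. Paxip1 and Ncoa6 varied together (r = 0.757, permutation p = 0.00029, adjusted p = 0.00399, rho = 0.761, permutation p = 0.00021, and r = 0.801 without XXM 2 and XYF F7).

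The PRC2 core did not vary as a unit within groups. Ezh2 and Suz12 had r = 0.666 (permutation p = 0.0311, adjusted p = 0.0658, rho = 0.474, permutation p = 0.0809), but r = 0.092 without XYF F7 and XYM 9, so that the relation rests on those mice. Ezh1 and Ezh2 had r = -0.488 (permutation p = 0.0186, adjusted p = 0.0466, rho = -0.609, permutation p = 0.00869), and r = -0.447 without XXM 2 and XYM 12, which did not pass. Eed and Suz12 had r = -0.009 (permutation p = 0.972, rho = 0.096, permutation p = 0.707). Of the 10 pairs of Kmt2c 0 passed the threshold, the largest r being 0.539 with Kmt2d (permutation p = 0.072, adjusted p = 0.128, rho = 0.463, permutation p = 0.102). Another pair of that size passed (Kdm6b and Kmt2d, r = 0.542), and a difference of Kmt2c from the other members was not tested. Kmt2d varied with Ncoa6 (r = 0.741, permutation p = 0.002, adjusted p = 0.0107, rho = 0.818, permutation p = 0.00038, and r = 0.667 without XYM 16 and XXM 8).

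**Figure D5:**
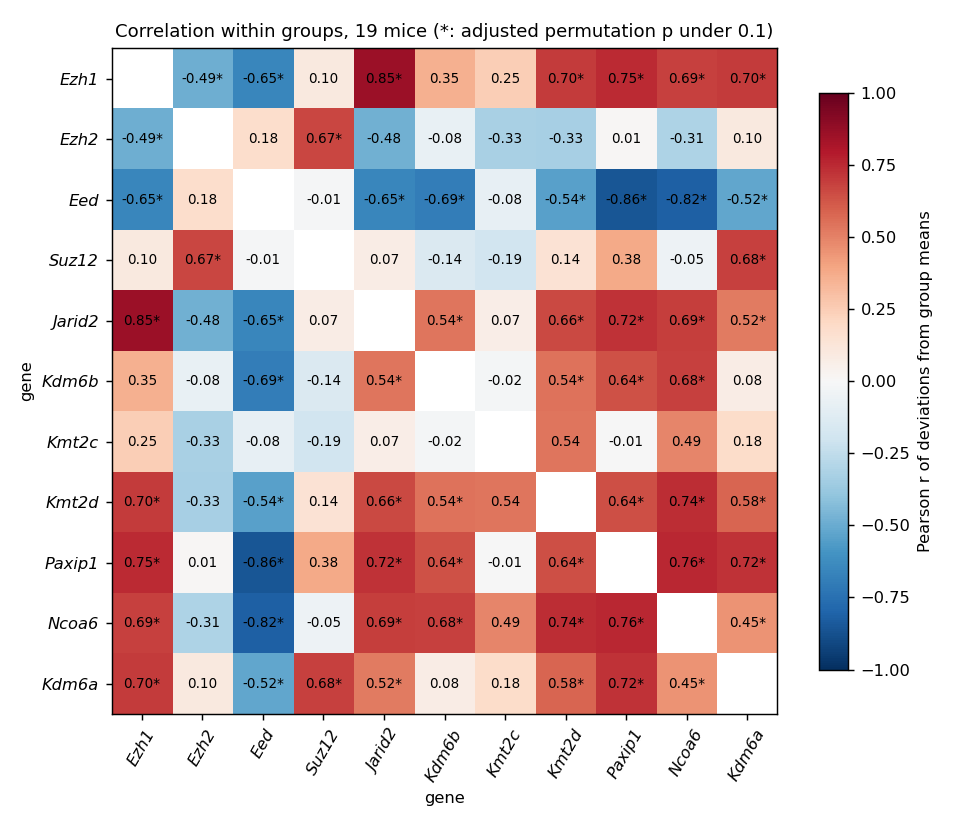
Pearson's r of deviations from group means between the 10 members and Kdm6a over 19 mice, with a star where the adjusted permutation p was under 0.1 (29 of 55 pairs). Eed is negative with Paxip1 (-0.86) and Ncoa6 (-0.82), and Ezh1 and Jarid2 have 0.85.

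The 3 genes most like each member were taken as those with the highest r of log2 levels over the 19 mice among 14185 genes, a description without a test. For Ezh2 they were Tacc3 (r = 0.964), E2f1 (0.955) and Ndc80 (0.941), and 2.13% of genes had an r above 0.8 with it. For Jarid2 they were Arhgap26 (0.967), Kdm2b (0.954) and Chst15 (0.954), and 7.88% of genes were above 0.8. For Kmt2d they were Adnp (0.957), Phf2 (0.954) and Map4k4 (0.934), with 5.60% of genes above 0.8. For Kmt2c they were Bdp1 (0.954), Nipbl (0.951) and Sbno1 (0.945), and for Ncoa6 Zmiz1 (0.953), Baz2a (0.948) and C2cd3 (0.945). Ezh1 was most like Polr3f (0.957), Casp2 (0.954) and Neurl4 (0.952), with the largest such share of genes above 0.8 among the members, 9.39%. Eed was most like Tvp23b (0.962), Mob4 (0.952) and Rchy1 (0.95), and Paxip1 like Tut7 (0.95), Ermp1 (0.946) and Picalm (0.943). Suz12 (Srsf1 0.907, Suco 0.844, Usp45 0.816) and Kdm6b (Rab11fip1 0.879, Zyx 0.879, Nfic 0.871) had fewer genes so close, 0.0352% and 0.113% above 0.8.

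Other genes of these pathways were read from lists by function, whose counts between XYM and XYF mice stand beside the 15.8% of all genes called there. Of 9 tested accessory subunits of PRC2, 1 was called between XYM and XYF mice, Lcor, which was higher in XYM by 0.75 (SE 0.19, limma's adjusted p = 0.0107). The mean RPKM of Lcor was 1.02, and its log2 difference was 1.40 with voom on recovered reads and 0.24 with the long-transcript covariate. The number of these subunits called was 2 without XYF F6, XYF F9, XYM 13 or XYM 15. Lcor was also called lower in XXM than in XYM mice (-0.59, SE 0.18, limma's adjusted p = 0.0868), a call lost without any 1 of XXF F4, XXF F5, XXM 2, XXM 5, XXM 6, XXM 7, XYM 12, XYM 13 or XYM 16, where it lay between -0.71 and -0.45 over all fits that left out 1 mouse. That difference was -0.26 and not called with the long-transcript covariate, and -1.06 with voom on recovered reads. Ezhip, a further listed gene, was at 0 reads in all 19 mice. Rbbp7 was the most highly expressed of this list (mean RPKM 69.0), and the largest log2 differences between XX and XY mice over both gonadal sexes were those of Phf1 (0.32, SE 0.08, limma's adjusted p = 0.0502) and Phf19 (-0.28, SE 0.10, adjusted p = 0.117), neither called.

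Of 12 shared or other subunits of COMPASS complexes, 1 was called between XYM and XYF mice, the methyltransferase gene Kmt2a (0.75, SE 0.17, limma's adjusted p = 0.00651), and 0 between XX and XY mice of either gonadal sex. Its 16439 bases of exons make it a long gene like Kmt2c and Kmt2d. Pagr1a, a subunit shared with the members' complexes, was the most highly expressed (mean RPKM 35.5), with a log2 difference of 0.28 between XX and XY mice over both gonadal sexes (SE 0.10, limma's adjusted p = 0.108), and that of the X-linked Hcfc1 was -0.18. Of 6 H3K4 demethylases, Kdm1b (0.66, SE 0.14, limma's adjusted p = 0.00424) and Kdm5d (0.84, SE 0.16, adjusted p = 0.00325) were called higher in XYM than in XYF mice, and Kdm1b fell short of the fold threshold without XYF F9 (0.58). The Y-linked Kdm5d was the 1 demethylase called between XX and XY mice in each gonadal sex, the X-linked Kdm5c had a log2 difference of 0.34 over both (SE 0.13, limma's adjusted p = 0.155), and Kdm1a had the highest mean RPKM of the list (26.7). Of the 2 H3K27 acetyltransferases, Ep300 (mean RPKM 20.3) was called higher in XYM than in XYF mice by 0.89 (SE 0.17, limma's adjusted p = 0.00299), and Crebbp differed by 0.20 between XX and XY mice over both gonadal sexes (SE 0.14, adjusted p = 0.373).

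Of 19 tested subunits of Polycomb repressive complex 1 (PRC1), 3 were called between XYM and XYF mice, Phc3 (0.89, SE 0.21, limma's adjusted p = 0.00667), Rybp (0.78, SE 0.21, adjusted p = 0.0129) and Kdm2b (0.69, SE 0.16, adjusted p = 0.00736), each higher in XYM. Of these 19, 0 were called by limma between XX and XY mice of either gonadal sex (1 in males without XYM 9 or XYM 15), and Phc2 (0.33, SE 0.09, adjusted p = 0.0495) and Cbx8 (0.27, SE 0.09, adjusted p = 0.107) had the largest log2 differences over both. Cbx7 was the most highly expressed of them (mean RPKM 59.5). With the long-transcript score as a covariate 0 genes of these 5 lists were called between XYM and XYF mice, as for the members. Among the genes called between XYM and XYF mice in these lists, 8 of 8 were higher in XYM, Y-linked Kdm5d included, while 48.4% of all 2236 genes called were higher. Of these, Kmt2a, Phc3 and Ep300 are long genes, a class of which 87.0% lay above 0 there. By the adjusted p alone 3 accessory PRC2, 6 COMPASS and 9 PRC1 subunits were higher in XYM mice, and 1 of each list was lower. Of the H3K4 demethylases 5 were higher and 0 lower, and of the H3K27 acetyltransferases 1 and 0. The direction was not compared with that of genes of like length.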

How the data were processed

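The values are log2(RPKM + 1) as deposited by the authors, who aligned reads to mm10 with Subread and counted them on genes with featureCounts (no versions are given in the sources used here). The columns were matched to mice by their titles, and genes with no reads carry an offset of 0.0001. RPKM was recovered by reversing the log2, and whole read numbers and library sizes were recovered from the steps between RPKM values, with all 21317 genes that had a read within 0.05 of whole reads. The reads on genes add up to slightly more than the library size recovered (16706482 against 16703648 in XXF F1). No second normalization was applied.

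Genes with an RPKM of 0.5 or more in 4 or more mice were fitted with limma 3.58.1 (R 4.3.3), with 1 mean per group, a trend in the spread and Benjamini-Hochberg adjustment over all genes tested. The thresholds were an adjusted p of 0.1 and a fold of 1.5, after the study's own. The p values measure the spread between mice. Correlations used deviations from group means and 100000 permutations within groups. Alternatives were planned before these fits, but with earlier results of these data known. They were other pseudocounts (0.5 and 0.1), filters left out or set to an RPKM of 1, median ratio rescaling, quantile normalization, 2 groups alone, spread without a trend, array weights, an adjusted p of 0.05, no fold threshold, limma with voom weights on the recovered reads, and each mouse left out. The fits with a long-transcript score as a covariate and with XYF F6, XYF F9 and XYM 9 left out were added after seeing the data. The latter keeps only XYF F7 and XYF F8 of the XYF mice.

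Genes were named by a rule: all members, Kdm6a and Uty, and of each pathway list the genes called in any comparison, the 2 with the largest differences between XX and XY mice over both gonadal sexes and the most highly expressed. Of each marker list the most abundant gene was named, and for each member the 3 genes most like it. The members and lists were chosen with earlier results of these data known. The steps were tested on simulated data with known differences. No batch is given, but library numbers run by group and the titles of the XXM mice carry an extra tag, so that an effect of handling groups apart cannot be told apart from group. Python 3.11.15, numpy 2.4.6, pandas 2.3.3, scipy 1.17.1, statsmodels 0.14.6 and matplotlib 3.10.9 were used.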

Additional observations from a re-analysis of the deposited data

Results flagged for a closer look

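In 82 groups of 4 or 5 values, 3 held 1 mouse far from the rest (chance flags about 1 in 20 groups). The log2 level of Paxip1 was 2.51 in XYM 15 and between 2.89 and 3.01 in the other 4 XYM mice. In XYM 9 the score of the germinal center B cell markers was -0.34, against 0.40 to 0.62 in the other 4, and the score of the NK cell markers was -1.5, against -0.27 to 0.13.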

How the results depend on the processing

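Of the 70 log2 differences of members, 25 with an unadjusted p under 0.1 in limma were followed over 33 settings. These kept their direction but for 5 with the long-transcript score as a covariate, an alternative added after seeing the data: Paxip1 between XXM and XYM mice (0.0206), Ezh1 between males and females of XY mice (-0.0234), over XX and XY mice (-0.0196) and in the difference of differences (-0.0075), and Ncoa6 between males and females of XY mice (-0.0709). With that covariate 371 genes were called between XXF and XYF mice, 32 between XXM and XYM, 184 genes and 0 members between males and females of XY mice, and 0 in the difference of differences. Without XYF F6, XYF F9 and XYM 9, also added after seeing the data, 48 genes were called between XXF and XYF mice and 947 between XXM and XYM. Of the 45 other differences, 28 took another sign in some setting and 0 were called in any. The 0 members called between XX and XY mice over both gonadal sexes and between XXM and XYM mice held in every setting with a fold threshold.

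A pseudocount of 0.1 gave 413 genes between XX and XY mice and 1700 between males and females, each over both other groups, and 6 in the difference of differences. Without a filter on low values 211 were called between XXM and XYM mice and 6 in the difference of differences. With median ratio rescaling 1 member was called between males and females of XY mice, and 6 correlations with marker scores passed. With 2 groups alone 88 genes were called between XXF and XYF mice and 121 between XXM and XYM, and 710 between males and females of XX mice. Array weights gave 1027 between XXM and XYM mice, and 1910 genes with 1 member (Kmt2d) in the difference of differences. An adjusted p under 0.05 left 103 genes between XXF and XYF mice, 85 between XXM and XYM and 0 in the difference of differences. Without the fold threshold 345 genes were called between XXF and XYF mice, 1115 between XXM and XYM and 983 over both, and between males and females 1348 in XX mice, 5661 with 5 members in XY mice and 5468 with 4 members over both. With voom 391 genes were called between XX and XY mice and 1714 between males and females, each over both other groups, and 4 in the difference of differences. The cause was not tested.

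With each mouse left out, genes called ranged from 57 to 850 between XXF and XYF mice, 51 to 1211 between XXM and XYM, 148 to 518 over both, 1396 to 2956 between males and females of XY mice and 0 to 1692 in the difference of differences. Members called ranged from 0 to 1 between XXF and XYF mice, 1 to 3 between males and females of XY mice and 0 to 1 in the difference of differences, and correlations with marker scores from 1 to 6. Of 32 correlations followed, 19 passed in every setting and 0 changed sign.

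Every member had 174 reads or more in each mouse, while Lcor, a named accessory gene, had as few as 28.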
